A study of Mus musculus with 16 samples.

Results

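In the spinal cord of spastic mice, the transcripts of Acta2, Tagln, Tns2 and Rgs5 were followed. These genes are grouped here as genes of mural cells, the contractile cells that wrap blood vessels. They were 4 of the 8251 genes that the array's annotation names, read by 5 of its 12488 probe sets: 1 probe set each for Acta2, Tagln and Tns2, and 2 for Rgs5. The genes were chosen by symbol, with their spastic-minus-control and spastic-minus-B6C3Fe differences already known, so those differences are given as a description and carry no test.

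The study measured whole spinal cord RNA on 16 single-colour arrays. The spastic mouse is known for a mutation of Glrb, the gene of a glycine receptor subunit at inhibitory synapses; the labels give no genotype beyond the names of the groups. The spastic group had 6 arrays of 5 titled samples: Spa1 and Spa2 (2 months, titled female), Spa-sev (3 months, titled male), Spa3+mo (3 months or more, titled male) and Spa-M6mo (6 months, titled female, arrays a and b). The control group had 8 arrays of 4 titled samples, at 12 and 9 months, titled female and male, each with arrays a and b, and its strain is not named in the labels. B6C3Fe, a mouse strain name, had 2 arrays of 1 sample titled male at 1 month. No label states how many animals went into a sample, or whether the letters mark separate animals; arrays that differ only in the letter were averaged, which left 10 samples, so the p-values below reflect the spread among those samples and nothing wider.

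The ages of the groups did not overlap: 2 to 6 months in spastic mice, 9 to 12 months in controls and 1 month in B6C3Fe, so age and group cannot be told apart. Glrb itself was at 9.92 to 11.11 (log2 intensity) on spastic arrays, 12.70 to 13.30 on control arrays and 12.92 to 12.98 on B6C3Fe arrays, which goes with the labels. Xist, expressed from the inactive X chromosome, was above 10 on all 6 spastic arrays, including the 2 titled male. On these 2 the Y-linked Eif2s3y was at the floor, so their titles went against the data. The fitted differences below are from a model with titled sex, which holds these 2 titles. Both B6C3Fe arrays had Xist at the floor (5.93), so sex as expressed and group cannot be told apart in spastic minus B6C3Fe. The ratio of the 3′ to the 5′ probe set of the control transcript Pcx was 3.99 to 7.87 (median 5.18) on spastic arrays, 2.49 to 6.59 (median 2.89) on control arrays and 3.19 to 3.72 on B6C3Fe arrays. Array a of the 9-month female controls, at 6.59, stood apart from the other control arrays, whose highest ratio was 4.25. Markers of neurons, oligodendrocytes and astrocytes (Snap25, Mbp, Gfap) were between 11.53 and 14.70 on every array. Of the 11 cord markers tested, 3 were called higher and 2 lower in spastic minus control, against 9.83% and 9.93% of all tested genes. Higher were the cholinergic marker Slc18a3 by 2.05, Hoxd10 by 0.94 and Nefm by 0.39. The neurofilament gene Nefl (-1.10) and the astrocyte channel Aqp4 (-0.82) were lower. The arrays of Hoxd10, Nefm and Nefl overlapped between the groups, and the median difference of the list was 0.045. Some markers of the tissue itself thus differed, in both directions.

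Mural cells form a continuum along a vessel. Smooth muscle cells ring arteries and arterioles and carry the contractile apparatus, in which smooth muscle actin and its partners generate force against the vessel wall. Pericytes lie on capillaries within the basement membrane shared with the endothelium, and in the central nervous system they help to maintain the blood-brain barrier. Acta2 encodes smooth muscle alpha-actin, Tagln encodes transgelin (SM22), an actin-binding protein of differentiated smooth muscle, Tns2 encodes a tensin that links the actin cytoskeleton to integrins at focal adhesions, and Rgs5 encodes a regulator of G protein signalling that is widely used as a pericyte marker. Acta2 and Tagln are classic targets of serum response factor, which binds the CArG box together with myocardin-family coactivators.

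The 250 bases before the annotated start were read from the RefSeq promoters of build GRCm38.p6 for the 3 members with an entry, to set the Acta2 sequence beside those of the other members; Tagln is named only. The Acta2 window (chr19:34255374-34255623, minus strand), the Tns2 window (chr15:102102684-102102933, plus strand) and the Rgs5 window (chr1:169655251-169655500, plus strand) are written 5′ to 3′ on the strand of the gene, with CArG boxes in capitals.
Acta2: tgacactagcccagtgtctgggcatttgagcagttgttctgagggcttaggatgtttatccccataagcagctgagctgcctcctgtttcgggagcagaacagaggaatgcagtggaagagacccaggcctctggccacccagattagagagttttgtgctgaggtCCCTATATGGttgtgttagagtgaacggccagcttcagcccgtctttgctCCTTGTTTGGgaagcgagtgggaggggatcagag
Tns2: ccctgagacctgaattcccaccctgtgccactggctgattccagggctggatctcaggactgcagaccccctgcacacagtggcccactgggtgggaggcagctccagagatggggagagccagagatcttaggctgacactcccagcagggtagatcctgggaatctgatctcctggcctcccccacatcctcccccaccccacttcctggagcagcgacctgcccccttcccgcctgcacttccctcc
Rgs5: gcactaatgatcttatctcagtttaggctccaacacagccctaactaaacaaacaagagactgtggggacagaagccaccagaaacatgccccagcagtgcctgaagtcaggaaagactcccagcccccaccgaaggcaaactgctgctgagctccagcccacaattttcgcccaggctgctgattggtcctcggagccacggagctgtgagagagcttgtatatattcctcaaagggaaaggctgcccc
The CArG box was searched on both strands, first in its strict form, with 6 A or T letters in the core, which 1.47% of all 32841 promoters held and none of the 3 members did. The Acta2 window held 2 boxes in which 5 of the 6 core letters were A or T, beginning 84 and 34 bases before the start. The Tns2 and Rgs5 windows held no box of either form, and 8.59% of all promoters held at least 1 with 5 or 6 such letters. The looser form was chosen after the sequences were seen, and a match or its absence in this window says nothing of binding.

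Acta2 stood higher on every spastic array than on any other array. Its intensity was 550.5 (Spa1) and 553.5 (Spa2) at 2 months, 665.1 (Spa-sev) and 669.7 (Spa3+mo) at 3 months or more, and 828.9 and 815.5 (Spa-M6mo) at 6 months. In controls the lowest, median and highest of the 8 arrays were 105, 199 and 283, and the B6C3Fe arrays read 177.0 and 104.4. The lowest spastic array was thus above the highest control array, which was array a of the 9-month females. Over samples the mean log2 intensity was 9.33 ± 0.24 (SD, n = 5) in spastic cords, 7.55 ± 0.35 (SD, n = 4) in controls and 7.09 in the B6C3Fe sample. In the linear model with titled sex, fitted with limma across all genes, the difference was 1.78 (SE 0.21), or 3.44-fold higher, for spastic minus control, and 2.25 (SE 0.36), or 4.76-fold higher, for spastic minus B6C3Fe. In whole cord, a change in the number of cells that express a gene and a change in its RNA per cell cannot be told apart. This holds here and for every gene below, whichever cells express it. Once the Pcx ratio was added as a covariate, the spastic-minus-control difference was 1.37.

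Tagln was also higher on all 6 spastic arrays than on the other 10, by a smaller step. It read 512.7 and 556.8 at 2 months, 708.3 in Spa-sev, 1003.2 in Spa3+mo, and 727.1 and 753.0 at 6 months. Control arrays lay within a narrow band of 381 to 482 (median 425), and the B6C3Fe arrays read 488.7 and 474.4. The groups did not overlap, but the 2-month spastic arrays lay close above the control and B6C3Fe bands. Mean log2 intensity was 9.42 ± 0.38 (SD, n = 5) in spastic samples, 8.73 ± 0.085 (SD, n = 4) in controls and 8.91 in B6C3Fe. The fitted difference was 0.71 (SE 0.18), or 1.64-fold, for spastic minus control, and 0.65 (SE 0.31), or 1.57-fold, for spastic minus B6C3Fe. The first was 0.29 with the Pcx ratio as a covariate and 0.45 without the 2 spastic samples titled male, and the second was 0.42 without Spa3+mo; the array with the highest Tagln, Spa3+mo, also had the highest ratio, 7.87. The part of this ratio in the difference was not tested.

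Tns2 was higher in spastic cords on average and varied more within every group. Spastic arrays read 260.8 and 331.6 at 2 months, 579.0 in Spa-sev, 615.4 in Spa3+mo, and 494.5 and 373.7 at 6 months. Control arrays ran from 35.1 to 302 (median 138), with 1 array below the floor of 60.9 that was set under all intensities, and the B6C3Fe arrays read 48.7 and 176.9. The groups overlapped: array a of the 9-month female controls (302.1) lay above the lowest spastic array, and array b of the 12-month males (260.1) just below it. Means were 8.72 ± 0.53 (SD, n = 5), 7.07 ± 0.58 (SD, n = 4) and 6.70 log2 units in spastic, control and B6C3Fe samples. The fitted differences were 1.72 (SE 0.27), or 3.29-fold, for spastic minus control and 2.42 (SE 0.46), or 5.37-fold, for spastic minus B6C3Fe. Without the term for titled sex the first was 1.65 and the second 2.02. Because low values sat near the floor, the size of the first depended on it, and it was 0.96 with the floor at the 40th percentile of intensities.

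Rgs5, the pericyte member, did not share this pattern. Its brighter probe set read 337.8 and 430.6 at 2 months, 250.4 in Spa-sev, 192.8 in Spa3+mo, and 189.8 and 297.8 at 6 months. Controls ran from 189 to 539 (median 347), and the B6C3Fe arrays read 400.6 and 378.0. All 6 spastic values fell within the control range. Means were 8.12 ± 0.46 (SD, n = 5) in spastic samples, 8.37 ± 0.47 (SD, n = 4) in controls and 8.60 in B6C3Fe, with fitted differences of -0.27 (SE 0.27) for spastic minus control and -0.63 (SE 0.47) for spastic minus B6C3Fe. With the Pcx ratio as a covariate these became 0.43 and 0.096, and without the 2 spastic samples titled male they were 0.063 and -0.097. Leaving out 1 sample gave, for spastic minus control, -0.14 when the 12-month female controls were dropped, -0.11 for the 12-month males, -0.57 for the 9-month females and -0.13 for Spa3+mo, and, for spastic minus B6C3Fe, -0.40 without Spa3+mo. The direction of Rgs5 is thus not settled by these arrays.

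The dimmer Rgs5 probe set stood lower in spastic cords. It read 24.5, 173.3, 80.8, 7.7, 53.8 and 69.6 on the Spa1, Spa2, Spa-sev, Spa3+mo and the 2 Spa-M6mo arrays, and 3 of these 6 were under the floor. Of the 8 control arrays, 7 lay between 192.3 and 353.0, above every spastic array, and array a of the 9-month females read 37.5. The B6C3Fe arrays, at 159.8 and 18.4, spanned most of the spastic range. The difference was -1.20 (SE 0.41) for spastic minus control and -0.25 (SE 0.71) for spastic minus B6C3Fe. This probe set was below the intensity filter, and the first difference shrank to -0.12 with the floor at the 40th percentile and to -0.34 with the Pcx ratio; the second turned to 0.0027 without Spa3+mo and was -0.41 without the 9-month female controls and -0.39 without Spa2. On the control array with the highest ratio, both Rgs5 probe sets had their lowest control values and Acta2 and Tns2 their highest. Across the 16 arrays, after removal of group means, the 2 Rgs5 probe sets correlated at r = 0.69, which is given as a description of arrays that share the same scaling.

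**Figure D1:**
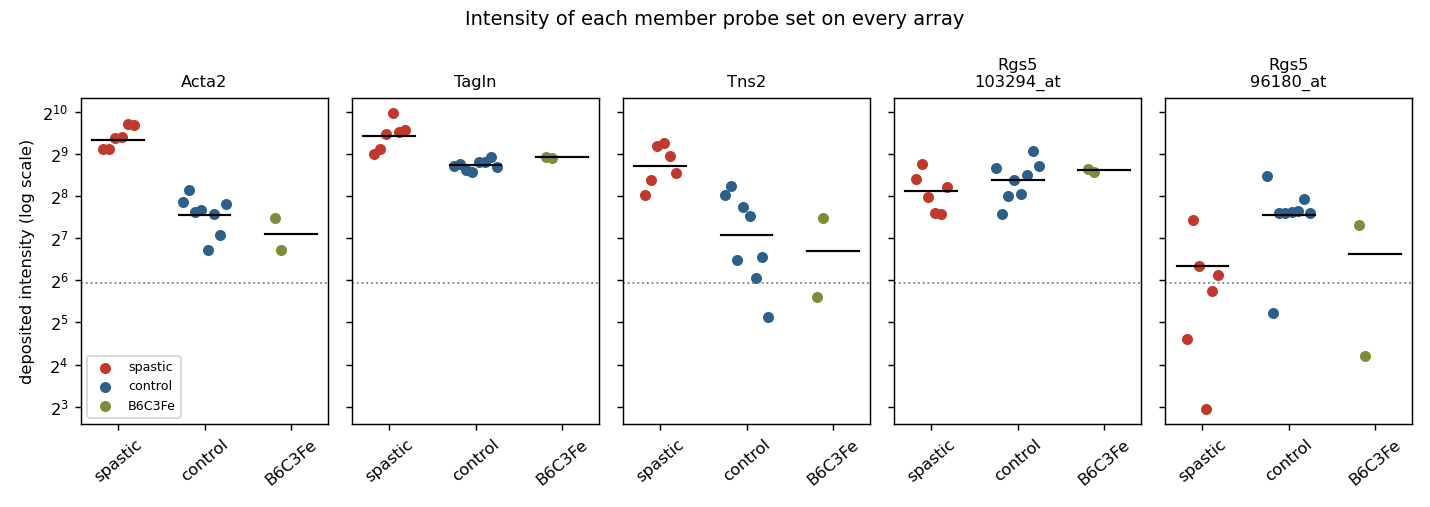
Deposited intensity (log axis) of the 5 probe sets on each spastic (6 arrays), control (8 arrays) and B6C3Fe (2 arrays) array; each point is an array, each bar the mean of the samples after flooring, and the dotted line the floor of 60.9. Acta2 and Tagln separate the spastic arrays from all others, Tns2 overlaps at its lowest spastic array, and the brighter Rgs5 probe set overlaps throughout.

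Over the whole array, all 6 spastic arrays lay above all 8 control arrays in 237 of 6427 tested genes (3.69%) and below them in 278 (4.33%). The 2 members that did so, out of 4 genes, were chosen for this difference, so nothing follows from the count. For scale, 9.83% of tested genes were called higher and 9.93% lower in spastic minus control at an adjusted p under 0.05 (limma, Benjamini-Hochberg). In spastic minus B6C3Fe, 1.42% were called higher and 0.638% lower. B6C3Fe, the youngest group, lay on the control side for Acta2 and Tns2, with B6C3Fe-minus-control differences of -0.47 (SE 0.36) and -0.71 (SE 0.46), and near the controls for Tagln (0.064, SE 0.31). These are from the fit with titled sex, while the plain Tns2 means were 6.70 in B6C3Fe and 7.07 in controls.

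The distance of Acta2 and Tagln from Rgs5 within each array addresses whether smooth muscle genes moved apart from the pericyte gene. The distance of Tns2, described above as a gene of focal adhesions, is given beside them. The zero of this log2 distance has no meaning, since the probe sets differ in brightness, and only its change between groups is read. The Acta2 distance was 0.70 and 0.36 at 2 months, 1.41 and 1.80 in Spa-sev and Spa3+mo, and 2.13 and 1.45 at 6 months. In controls it ran from -2.01 to 0.58, and in B6C3Fe it was -1.18 and -1.86. One control array, again array a of the 9-month females at 0.58, lay above the lowest spastic array. Over samples the distance was 1.21 ± 0.65 (SD, n = 5) in spastic cords, -0.81 ± 0.66 (SD, n = 4) in controls and -1.52 in B6C3Fe.

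The Tagln distance was 1.30 ± 0.82 (SD, n = 5) in spastic samples, 0.36 ± 0.41 (SD, n = 4) in controls and 0.31 in B6C3Fe, and its arrays overlapped (0.37 to 2.38 in spastic, -0.16 to 1.19 in controls). For Tns2 it was 0.60 ± 0.93, -1.30 ± 0.98 and -1.91 in the same groups and the arrays overlapped as well (-0.38 to 1.67 in spastic, -2.79 to 0.68 in controls). In the model with titled sex the distances from Rgs5 differed by 2.05 (Acta2), 0.98 (Tagln) and 1.99 (Tns2) log2 units between spastic and control. With the Pcx ratio in the model they were 0.94, -0.14 and 0.90, so Tagln no longer stood apart from Rgs5 under that term, while Acta2 and Tns2 kept a smaller distance in the same direction; without the 2 spastic samples titled male the Tagln distance was 0.39. These values are a description of genes chosen for their differences.

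**Figure D2:**
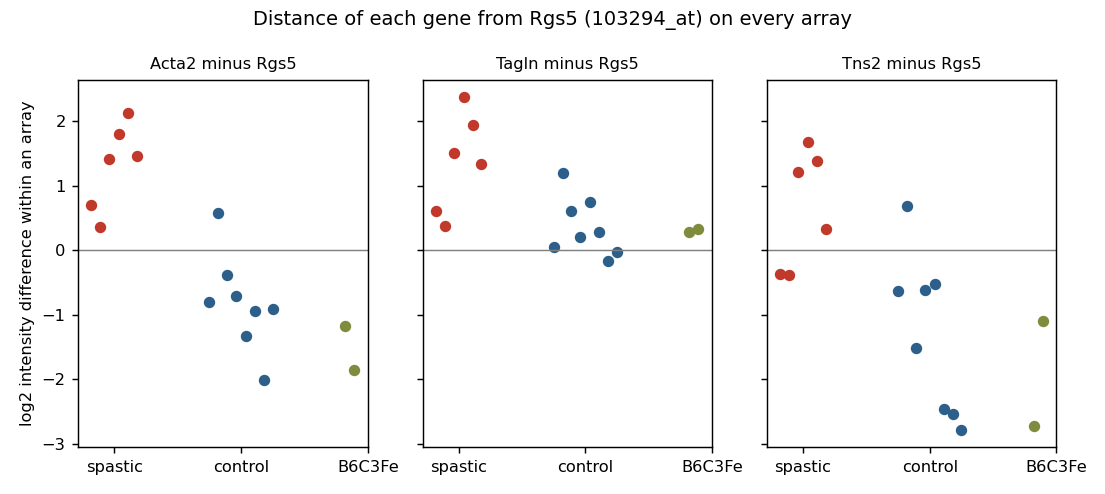
Difference in log2 intensity between each of Acta2, Tagln and Tns2 and the brighter Rgs5 probe set on the same array (y axis), by group (x axis), 1 point per array. Spastic arrays lie highest for Acta2 (0.36 to 2.13), with a single control array, at 0.58, inside their range.

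**Figure D3:**
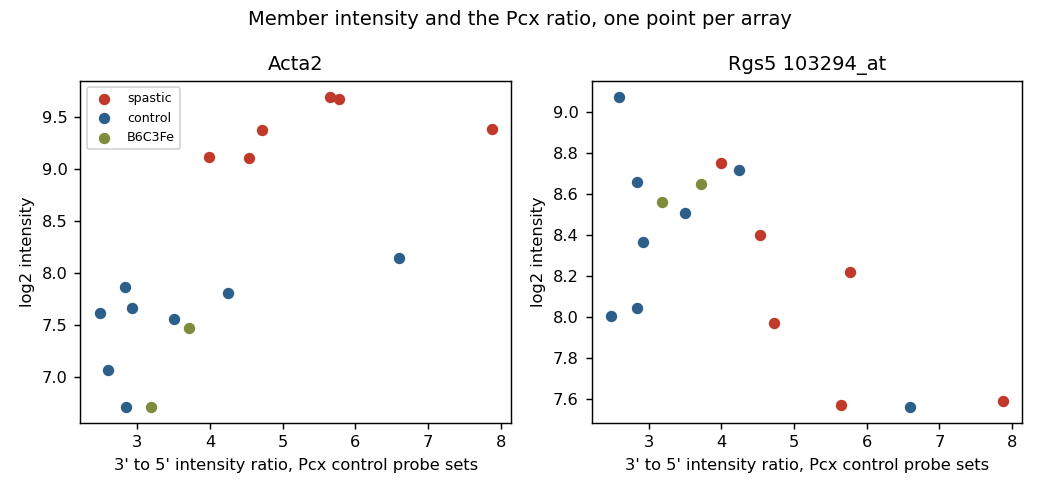
Log2 intensity of Acta2 (left) and of the brighter Rgs5 probe set (right) against the 3′ to 5′ ratio of the Pcx control probe sets, 1 point per array, coloured by group. The spastic arrays span ratios of 3.99 to 7.87 and the control arrays 2.49 to 6.59; only 2 control arrays, at 4.25 and 6.59, and no B6C3Fe array lie within the spastic range of ratios.

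Within the spastic group Acta2 was lowest on the 2-month arrays, next on those titled 3 and 3+ months and highest at 6 months. These sets of arrays did not overlap. The title 3+ gives only a lower bound of age, so the order is one of titles. The share of all genes in this order was not counted, and nothing is read from it. Tagln and Tns2 were lowest at 2 months as well, but their highest array was Spa3+mo rather than a 6-month one. The brighter Rgs5 probe set ran from 337.8 to 430.6 at 2 months and from 189.8 to 297.8 at the later ages. The Pcx ratio was 4.54 and 3.99 at 2 months, 4.72 and 7.87 in Spa-sev and Spa3+mo, and 5.64 and 5.77 at 6 months. It was thus also lowest at 2 months, and its part in the order of Acta2 was not tested. Each age had 1 or 2 samples, and no test of age within spastic mice was made.

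**Figure D4:**
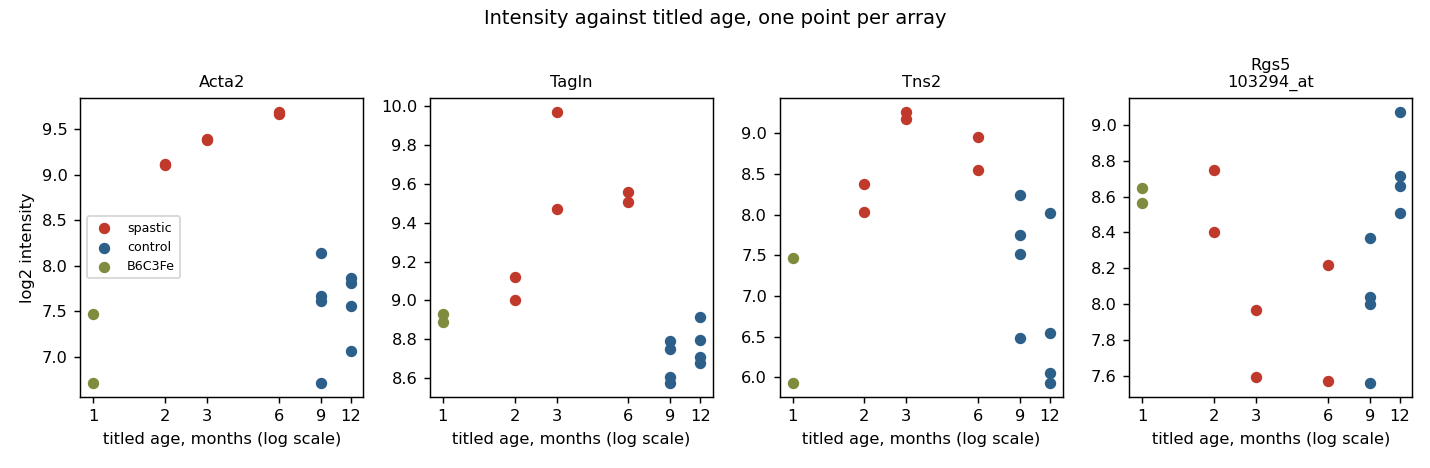
Log2 intensity of Acta2, Tagln, Tns2 and the brighter Rgs5 probe set against titled age in months (log axis), 1 point per array, coloured by group; the array titled 3+ months is drawn at 3. Acta2 on spastic arrays runs from 9.10 at 2 months to 9.69 in the 6-month sample. Every control array, at 9 or 12 months, is at 8.14 or below. The share of all genes with such an order was not counted.

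Contrasts that played no part in the choice of members were tested with limma over all 6427 genes. Between 12- and 9-month controls, no member was called, against a background of 0% of genes (346 had an unadjusted p under 0.05). Tns2 averaged 6.64 at 12 months and 7.50 at 9 months, a difference of -0.86 (SE 0.31, adjusted p = 0.897). The brighter Rgs5 probe set averaged 8.74 at 12 months and 7.99 at 9 months (0.75, SE 0.35, adjusted p = 0.906). Its arrays read 363.6 to 539.0 at 12 months and 188.5 to 329.9 at 9 months. The share of all genes with ranges so separated was not counted, and nothing is read from the separation. Acta2 differed by 0.039 (SE 0.32, adjusted p = 0.991) and Tagln by 0.093 (SE 0.27, adjusted p = 0.978). With standard errors of this size the contrast does not show that age was without effect.

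The contrast of titled sex is not one of sex as expressed, since the male arm holds the 2 spastic samples with high Xist and Eif2s3y at the floor. It called 0% of genes (389 with an unadjusted p under 0.05) and none of the members. The largest member difference was in Tns2, at -0.67 for female minus male (SE 0.27, adjusted p = 0.798), followed by -0.24 for Tagln (SE 0.18, adjusted p = 0.815), 0.24 for Rgs5 (SE 0.27, adjusted p = 0.872) and -0.0067 for Acta2 (SE 0.21, adjusted p = 0.998). Without those 2 samples the Tns2 difference was -0.47 (adjusted p = 0.999), and no member was called. The array titled sev against the other spastic samples called 0.0156% of genes and again no member. Its Acta2 was 9.38, against a mean of 9.32 in the other spastic samples (difference 0.063, SE 0.40, adjusted p = 0.995). The other 3 members differed by -0.15 to 0.088 with adjusted p of 0.995 to 0.998; this contrast rests on 1 array that is assumed to vary like the others.

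The apparatus in which Acta2 and Tagln work was followed through 22 other contractile genes of smooth muscle, of which 13 were tested. Of these, 2 were called higher and 0 lower in spastic minus control, and the median difference was 0.18, against -0.02 over all genes. Over all tested genes 9.83% were called higher and 9.93% lower. Nothing is therefore read from this count, or from the number of calls in the lists below that hold a single one. Myl9, the regulatory light chain of smooth muscle myosin, read 436 to 623 on spastic arrays and 254 to 327 on control arrays with no overlap, and was higher by 0.88 (SE 0.15, limma adjusted p = 0.00402). Tpm1, a tropomyosin that lies along the actin filament, rose by 0.58 (SE 0.14, adjusted p = 0.0141); its lowest spastic array (1525) lay under its highest control array (1562), and without the 12-month female controls its adjusted p was 0.0577, which left 1 call. The other 11 were not called, and they ran from -0.59 for Actg2, the enteric smooth muscle actin (SE 0.22, adjusted p = 0.0863), to 0.45 for Tpm2 (SE 0.28, adjusted p = 0.28). Under the Pcx covariate 9 genes of the whole array were called, and 0 of this list: Myl9 stood at 0.96 with adjusted p = 0.0898, and Tpm1 at 0.83 with adjusted p = 0.0718.

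Myh11, the smooth muscle myosin heavy chain and a specific marker of the lineage, was under the filter on mean intensity and was singled out after its values were seen. It read 239.3, 218.4, 252.2, 263.0, 189.2 and 306.8 on the 6 spastic arrays in the order of their titled ages. Control arrays ran from 16.3 to 132, with 6 of 8 under the floor, and the B6C3Fe arrays read 24.8 and 64.5. Every spastic array lay above every other array. The floored means were 7.92 ± 0.10 (SD, n = 5) in spastic samples and 6.09 ± 0.27 (SD, n = 4) in controls, a difference of 1.83, and no test is given because the gene was chosen for its values. The size rests on the floor at which most control arrays lie, from 0.25 with the floor at the 40th percentile to 2.56 at the 10th, and was 1.79 with the Pcx ratio as a covariate. Smtn, smoothelin, another marker of contractile smooth muscle, read 80.5 to 178 on spastic and 50.8 to 129 on control arrays (difference 0.62), and Cnn1, Flna and the channel subunit Kcnmb1 were at or near the floor in both groups.

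Of 18 regulators of smooth muscle, 4 were tested and 1 was called. Notch3, the Notch receptor of arterial smooth muscle and pericytes, read 883 to 1228 on spastic arrays and 531 to 697 on control arrays, with no overlap (0.80, SE 0.12, adjusted p = 0.00229); with the Pcx covariate it was 0.66 with adjusted p = 0.11. The B6C3Fe arrays, at 794.7 and 923.9, lay above all controls with 1 inside the spastic range, and spastic minus B6C3Fe was 0.14 (SE 0.21, adjusted p = 0.728). Klf4, a factor of smooth muscle dedifferentiation, differed by 0.57 (SE 0.23, adjusted p = 0.106). Of the 25 genes of vascular tone, 5 were tested, 0 were higher and 3 lower, among them Gucy1b1, a subunit of the nitric oxide receptor guanylyl cyclase (-0.98, SE 0.16, adjusted p = 0.00298) and Kcnma1, the large-conductance potassium channel (-0.44, SE 0.14, adjusted p = 0.0449); the third is not reported here. Both are also expressed by neurons, and the call of Kcnma1 was lost under 13 of 28 alternatives, among them the removal of any 1 control sample or of Spa1, Spa2 or Spa3+mo (adjusted p of 0.0532 to 0.125).

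The pericyte list of 24 genes had 6 tested, of which 1 was called higher and 0 lower, with a median of 0.18. Vtn, vitronectin, a matrix protein made by pericytes of the brain and cord, read 809 to 1284 on spastic and 496 to 881 on control arrays, which overlapped (0.48, SE 0.15, adjusted p = 0.0486), and its call was lost under 14 of 28 alternatives, among them the removal of any 1 control sample or of any 1 spastic sample but Spa1 (adjusted p of 0.054 to 0.167). Mcam, an adhesion molecule of mural and endothelial cells, differed by 0.21 (SE 0.15, adjusted p = 0.34). Pdgfrb, a growth factor receptor listed here as a pericyte marker, was just under the filter at 0.27 (SE 0.19). It read 138 to 251 on spastic arrays and 123 to 228 on control arrays, which overlapped. Abcc9, a subunit of the pericyte potassium channel, was under the filter at -0.68 (SE 0.16), and Kcnj8, its partner, was at 0.096 (SE 0.21). Pdgfrb, Abcc9 and Kcnj8 were named after their values were seen, so no test is given for them. Of the 6 tested, 5 had differences above 0, and no test of the smooth muscle list against the pericyte list was made. The contractile and the pericyte list both had a median of 0.18. The distance of Acta2 from Rgs5 is therefore not read as one between the cell types.

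**Figure D5:**
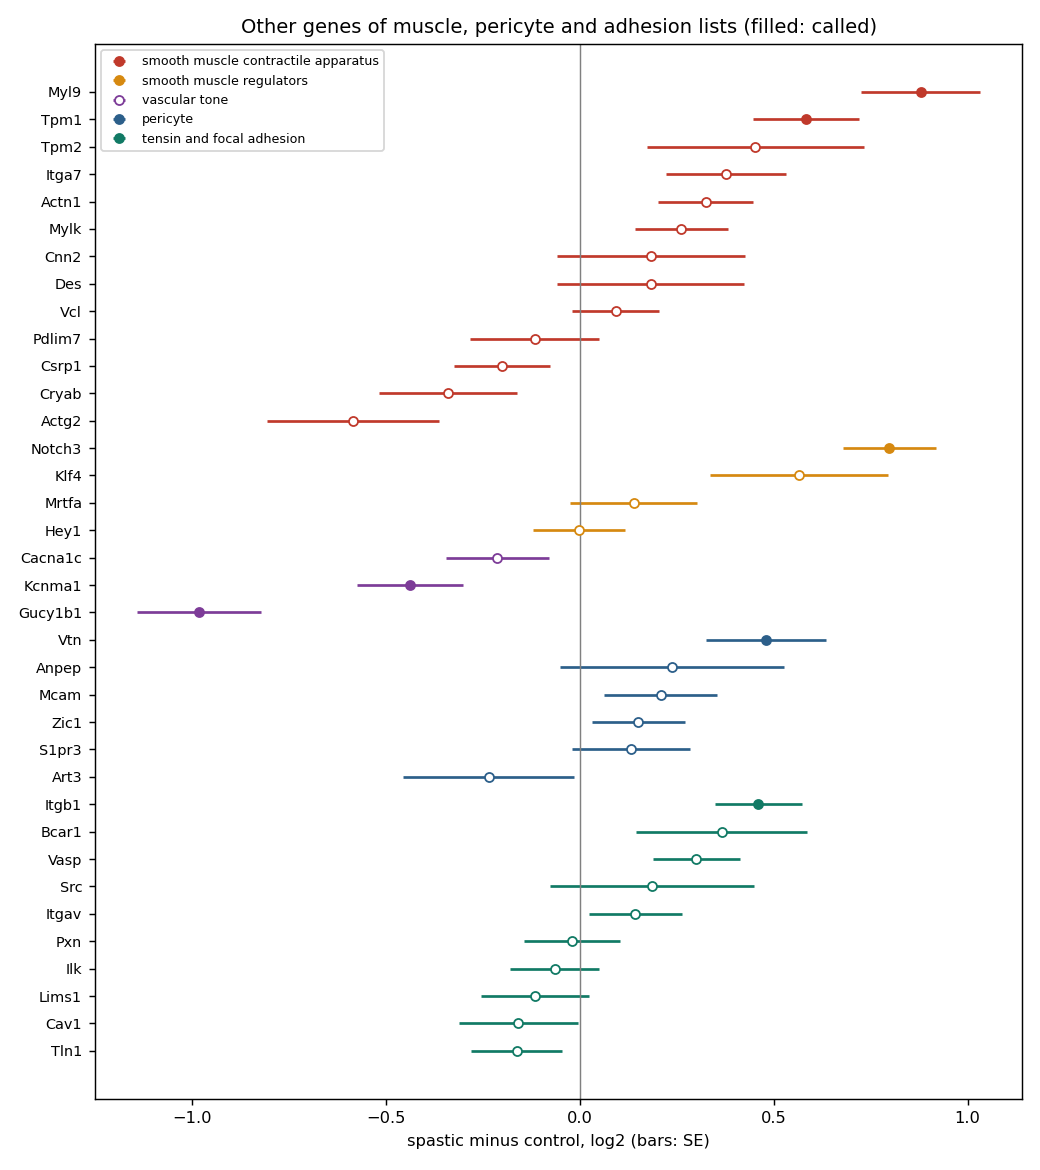
Spastic-minus-control differences (log2, x axis; bars are SE) for tested genes of the contractile, regulator, vascular tone, pericyte and adhesion lists, without the 4 members and without 2 tone genes that are not drawn; filled points were called at an adjusted p under 0.05. Calls higher are Myl9, Tpm1, Notch3, Vtn and Itgb1, and calls lower are Kcnma1 and Gucy1b1.

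Among the 20 adhesion genes that work with tensins, 10 were tested and 1 was called. Itgb1, the integrin beta-1 chain to whose tail tensins bind, was higher by 0.46 (SE 0.11, adjusted p = 0.0174), but its other probe set stood at -0.11 (SE 0.18), and the call was lost under 7 of 28 alternatives, among them the removal of the 12-month female controls (adjusted p = 0.0663) or the 9-month male controls (adjusted p = 0.0545). Vasp, an actin assembly factor at adhesions, differed by 0.30 (SE 0.11, adjusted p = 0.0822). Of the 5 other actins, which share most of their coding sequence with Acta2, Actb was called higher (1.55, SE 0.34, limma adjusted p = 0.011). Its lowest spastic array (3085) lay under its highest control array (3111), and the call was lost under 4 of 28 alternatives. The other Actb probe set stood at 0.69 (SE 0.29). The remaining 4 actins had differences of -1.42 to -0.35 and no call, among them cytoplasmic Actg1 (-0.35, SE 0.13, adjusted p = 0.082). Of 18 other RGS genes, 9 were tested and 1 was called: Rgs2, which like Rgs5 acts on Gq signalling, was lower (-0.43, SE 0.14, adjusted p = 0.0461), a call lost under 16 of 28 alternatives, among them the removal of any 1 control sample but the 12-month males, or of any 1 spastic sample but Spa-sev (adjusted p of 0.0764 to 0.135). Rgs7, a neuronal member, was not called (-0.58, SE 0.22, adjusted p = 0.0834). Against B6C3Fe, 0 genes of the contractile, regulator, tone, pericyte, adhesion and actin lists were called in the limma fit, and in the RGS list Rgs11 was higher (1.29, SE 0.23, adjusted p = 0.0246; its other probe set was at -0.022), while 1304 of all tested genes had an unadjusted p under 0.05 in that comparison.

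Of 15 listed markers of the endothelium, 12 had a probe set and none was at the floor throughout. In spastic minus control, 8 of 9 tested were called higher, against 9.83% of all tested genes, with a median difference of 1.04. Against the 1 B6C3Fe sample the median difference of these markers was 1.08. Their summed intensity was 8343 to 9940 on spastic arrays, 3595 to 5229 on control arrays and 4537 to 4708 on B6C3Fe arrays. The part of vessel content in the values of Acta2, Tagln and Tns2 was not tested. The sum over the 19 contractile genes with a probe set overlapped, at 17261 to 19167 on spastic arrays, 14773 to 18803 on control arrays and 15260 to 16674 on B6C3Fe arrays. A sum of intensities weighs its brightest genes most. Here that was Csrp1, at 5572 to 7497 on spastic and 5947 to 8389 on control arrays, so the overlap does not speak for each contractile gene. The sum over the 16 pericyte genes with a probe set was 5736 to 7272 on spastic arrays, 5354 to 6354 on control arrays and 5409 to 5782 on B6C3Fe arrays, and overlapped. Its brightest gene was Zic1, at 1564 to 2281 on spastic and 1405 to 2002 on control arrays. Meningeal and fibroblast markers summed to 15569 to 28031, 16995 to 21189 and 19747 to 20414 in the same groups, with 0 called higher and 1 lower of 10 tested. Skeletal muscle markers had 0 higher and 2 lower of 10 tested, and the blood markers 0 called of 3.

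By likeness over the 10 samples, the tested genes closest to Acta2 were Mab21l2 (r = 0.968), Pkd1, Thrap3, Sec31a and Cmip (r = 0.954). Those closest to Tagln were Cd151 (r = 0.971), Fbxw2, Sumo3, Ptgds and Cavin1 (r = 0.939), of which Cd151 is a tetraspanin that partners integrins and Cavin1 a coat protein of caveolae. Those closest to Tns2 were Mrpl2 (r = 0.976), Sparc (r = 0.975), Sun2, Cyb5r3 and Zfp622 (r = 0.966), and Sparc encodes a matrix protein. Those closest to the brighter Rgs5 probe set were Olfr1509 (r = 0.938), Mki67, Mettl17, Ltc4s and Etl4 (r = 0.905). These correlations hold the step between groups and share the scaling of each array. With group means removed over the 16 arrays, Acta2 correlated at 0.09 with Tagln and 0.081 with Tns2. Tns2 correlated at -0.53 with the brighter Rgs5 probe set. The likeness of Acta2 to Tagln and Tns2 thus lay mostly between groups.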

How the data were processed

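Spinal cord RNA of 16 mouse samples was measured on single-colour arrays. The deposited values are intensities; each array's mean after trimming 2% was 800.4 to 800.5, so the authors' values had been scaled to a common mean, while the sources used here do not name the software. Probe sets were named from the platform annotation: of 12488, 10833 had 1 symbol, 396 several and 1193 none, and 66 control probe sets were left out of tests.

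Intensities below 60.9, the 20th percentile of the whole table, were set to it (log2 5.93) before log2 was taken. Arrays differing only in the letter of the title were averaged (6 samples of 2 arrays). Probe sets with a mean above the 40th percentile (7.62) were kept, with the brightest per symbol, which left 6427 genes. limma 3.58.1 in R 4.3.3 (lmFit, eBayes with a trend) was fitted with group and titled sex, and p-values were adjusted by Benjamini-Hochberg over all genes at 0.05; the same steps were checked on simulated data. Between 14.7% and 24.1% of probe sets per array lay at or under the floor, and the number of arrays limits the precision.

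Members and gene lists were chosen with earlier results of these data known. Genes were named by rule: all probe sets of the members, up to 4 called genes per list by size (where fewer than 2 were called, also the 2 of smallest p), and the 5 genes most like each member. Further list genes, some of them under the filter, were named after their values were seen (Myh11, Smtn, Cnn1, Flna, Kcnmb1, Pdgfrb, Abcc9, Kcnj8, Actg2, Tpm2, Csrp1, Zic1, Rgs11, Slc18a3, Hoxd10, Nefm, Nefl, Aqp4). In the list of tone genes, 1 called gene is counted but its values are not reported here. Alternatives changed the floor, filter, normalization, probe set choice, treatment of letters, sex and age terms, the Pcx covariate and the samples left out.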

Additional observations from a re-analysis of the deposited data

Results flagged for a closer look

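Of 26 groups of samples or arrays tested for an outlying member value, 4 held one, at a level where chance gives about 1 in 20. Groups of arrays and groups of samples share values and are not independent, so the count is not read as an excess. Among control samples, Tagln was highest in the 12-month females at 8.856 (log2), and the nearest other sample was at 8.694. The dimmer Rgs5 probe set was lowest among control arrays on array a of the 9-month females, at 5.927, which is the floor, with the nearest other array at 7.587. The same probe set was highest among spastic arrays in Spa2 at 7.437, with the nearest at 6.336, and the same value was far from the others when the spastic samples were compared.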

How the results depend on the processing

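The differences of Acta2, Tagln and Tns2 for spastic minus control and spastic minus B6C3Fe stayed above 0 under all alternatives run. Without the term for titled sex, spastic minus control was 1.78 (Acta2), 0.69 (Tagln), 1.65 (Tns2) and -0.24 (the brighter Rgs5 probe set). Spastic minus B6C3Fe was then 2.25, 0.51, 2.02 and -0.48 in the same order. With the Pcx ratio as a covariate, spastic minus control was 1.37 for Acta2, 0.29 for Tagln, 0.43 for the brighter Rgs5 probe set and -0.34 for the dimmer Rgs5 probe set, and the distances from Rgs5 were 0.94 (Acta2), -0.14 (Tagln) and 0.90 (Tns2); spastic minus B6C3Fe was 1.83, 0.21, 0.096 and 0.64 for Acta2, Tagln and the brighter and the dimmer Rgs5 probe set. The same term left 9 genes called in spastic minus control, 0 of them contractile and 0 pericyte. The cause was not tested. With the floor at the 40th percentile, spastic minus control was 0.96 for Tns2 and -0.12 for the dimmer Rgs5 probe set, and spastic minus B6C3Fe 1.66 for Acta2 and 1.29 for Tns2; a higher floor compresses low values by construction. With only the 1a arrays, spastic minus B6C3Fe was 1.86 (Acta2), 2.999 (Tns2) and -0.88 (the dimmer Rgs5 probe set), and 759 genes were called in spastic minus control. Without the 2 spastic samples titled male, spastic minus B6C3Fe was 0.23 (Tagln), -0.097 (the brighter Rgs5 probe set) and 0.39 (the dimmer Rgs5 probe set), and 396 genes were called, 1 contractile and 0 pericyte. With log2 of age in the model and B6C3Fe counted as control, Acta2 was at 2.08, 701 genes were called and 1 contractile gene was lower.

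Contractile genes called higher numbered 1 with the filter at the 60th percentile and 4 with every array as its own replicate; 1 was called lower with every array, with the title as a random block and with the letter as a replicate block. Pericyte genes called higher numbered 0 with no filter, with every probe set, without a trend and when the 9-month female control array a was left out, and 1 was lower with no filter. With 1 sample left out in turn, contractile calls were 1 to 3 higher and 0 to 1 lower, pericyte calls 0 to 1 higher, and all calls 723 to 1273, with 723, 810 and 790 without the 12-month female, 12-month male and 9-month male controls. Counts also ranged over the alternatives from 0 to 2 regulators higher, 0 to 3 tone genes lower, 0 to 2 adhesion genes higher, 0 to 1 actins higher and 0 to 4 lower, 0 to 1 RGS genes higher and 0 to 2 lower, and 6 to 626 genes in spastic minus B6C3Fe (132 in the reported fit), 0 to 12 in 12 minus 9 months, 0 to 3 in female minus male and 0 to 15 in Spa-sev minus other spastic. The letter, as a replicate block over every array, gave 1.72 for Acta2, 0.76 for Tagln, 1.87 for Tns2 and -0.26 for the brighter Rgs5 probe set in spastic minus control; the letters pair no samples by any label.

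Of the contrasts in which no member was called, signs turned as follows. For 12 minus 9 months, Acta2 was -0.041 (floor at the 40th percentile), -0.14 (quantile normalization) and -0.22 (1a arrays), and, with 1 sample left out, -0.41 to 0.49, and Tagln -0.17 to 0.35. For female minus male, Acta2 was 0.056 with every array, 0.039 with the random block, 0.089 with the replicate block, 0.010 with 1a arrays, 0.072 with B6C3Fe among the controls, 0.080 with the Pcx ratio and 0.084 without the titled-male spastic samples (left out in turn, -0.14 to 0.093); without those samples Tagln was 0.079 and Rgs5 -0.16. For Spa-sev minus other spastic, Acta2 was -0.013 (quantile) and -0.014 (replicate block), Tagln 0.062 (no sex term) and 0.093 (Pcx), Tns2 -0.10 and Rgs5 0.032 (when the 9-month female control array a was left out), and Rgs5 4.1e-05 (log2 of age); left out in turn, they ran from -0.064 to 0.16, -0.24 to 0.33, -0.13 to 0.32 and -0.54 to 0.23 for Acta2, Tagln, Tns2 and Rgs5.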
